A study of Mus musculus with 42 samples.

Results

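The transcripts of 5 cytokine genes, Il6, Tnf, Il10, Il15 and Ifng, were followed in mouse spleen after injection of CpG oligodeoxynucleotides (CpG ODN). They were taken as the genes of these symbols, each measured by the array features annotated with that symbol alone. They make up 5 of the 15277 genes and 6 of the 30601 features measured, since Il15 has 2 features and each of the others has 1. All 5 genes had a value on all 42 arrays.

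Every mouse was a female BALB/c animal (wild type per the labels), and no ages are stated in the labels. CpG mice received 400 µg of an equimolar mixture of CpG ODN 1555 and 1466 into the peritoneum, and spleens were taken at 3 h, 9 h, 24 h and 72 h and at 5, 7, 9 and 14 days. Control mice received 400 µg of ODN 1612 and 1471 and were sampled at 3 h alone, and the remaining mice were untreated. The untreated group had 6 arrays and each of the other 9 groups had 4, described by the submitters as independent biological replicates.

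Unmethylated CpG motifs engage the endosomal receptor TLR9, which signals through MyD88 to NF-kB and interferon regulatory factors in B cells, dendritic cells and macrophages. IL-6 and TNF are early pro-inflammatory cytokines of this response, and IL-10, which signals like IL-6 through STAT3, restrains it. IL-15 is presented on its receptor chain IL-15Rα to NK cells and CD8 T cells and sustains them. Interferon-gamma is made mainly by NK and T cells and activates macrophages.

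Each value is a log2 ratio of spleen cDNA over a universal mouse reference cDNA on the same array, so differences between groups can be read for one gene while levels of different genes cannot be compared. Markers of the labelled tissue were present in untreated spleen, with a log2 ratio of 5.64 ± 0.55 (SD, n = 6) for the B cell gene Cd79a and 1.11 ± 0.24 for the T cell gene Cd3e. Pairs of arrays correlated at 0.698 to 0.97 (861 pairs, 0 of them identical). Arrays were split by their database numbers into 10 runs, and control ODN, CpG 72 h, CpG 7 days and CpG 14 days lay together in run 4, which held no untreated array. In whole spleen, fewer cells of a type and less RNA per cell cannot be told apart.

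Promoter sequences from RefSeq (GRCm38.p6), 250 bases before to 50 bases after the gene start, were available for Il6, Tnf and Ifng. They are shown because Il6 and Tnf rose at 3 h while no change of Ifng was detected then, and matches to searched motifs on either strand are in capitals. The windows are chr5:30012864-30013163 (plus strand) for Il6, chr17:35201958-35202257 (minus strand) for Tnf and chr10:118440796-118441095 (plus strand) for Ifng.
Il6: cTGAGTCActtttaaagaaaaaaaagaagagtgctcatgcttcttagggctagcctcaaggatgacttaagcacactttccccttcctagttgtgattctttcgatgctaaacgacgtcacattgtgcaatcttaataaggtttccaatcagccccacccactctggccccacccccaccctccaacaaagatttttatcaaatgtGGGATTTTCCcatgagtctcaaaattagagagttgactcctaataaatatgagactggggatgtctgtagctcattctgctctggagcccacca
Tnf: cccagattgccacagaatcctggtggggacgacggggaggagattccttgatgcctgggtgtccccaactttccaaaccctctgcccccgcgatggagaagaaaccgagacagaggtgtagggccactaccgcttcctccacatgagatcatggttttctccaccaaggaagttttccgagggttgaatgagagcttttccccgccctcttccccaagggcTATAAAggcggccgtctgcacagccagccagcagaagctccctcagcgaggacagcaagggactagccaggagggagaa
Ifng: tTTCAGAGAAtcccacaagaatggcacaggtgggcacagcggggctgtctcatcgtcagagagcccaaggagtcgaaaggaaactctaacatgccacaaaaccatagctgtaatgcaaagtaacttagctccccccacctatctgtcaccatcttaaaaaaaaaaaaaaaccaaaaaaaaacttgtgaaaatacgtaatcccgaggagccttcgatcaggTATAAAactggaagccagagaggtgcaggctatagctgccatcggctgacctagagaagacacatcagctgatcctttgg

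The Il6 window held the NF-kB consensus as GGGATTTTCC, starting at position -44 from the gene start, and the AP-1 motif TGANTCA as TGAGTCA. The Tnf window held TATAAA alone, starting at position -29. The Ifng window held TATAAA at position -30 and the STAT motif TTCNNNGAA as TTCAGAGAA. Neither the NF-kB consensus nor TGANTCA was found in the Tnf and Ifng windows, and the interferon-stimulated response element was found in none of the 3. Among 32851 promoter windows of the same length, 8.46% held the NF-kB consensus, 13.6% TATAAA, 7.81% TGANTCA, 8.3% TTCNNNGAA and 3.44% the interferon-stimulated response element. These matches describe letters in the window and are no evidence of binding.

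At 3 h after CpG ODN, 4 of the 5 genes were higher than in untreated spleen: the pro-inflammatory Il6 and Tnf, the lymphocyte growth factor Il15 and the anti-inflammatory Il10. Across all genes tested in that comparison, 7.70% were called higher and 3.93% lower (limma, Benjamini-Hochberg adjusted p below 0.05, 2-sided). No difference was detected for Ifng. Every comparison with untreated spleen, here and below, uses the same 6 untreated arrays.

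For Il6, the 4 arrays at 3 h read 1.43, 2.32, 1.36 and 1.60, and the untreated arrays ran from -2.12 to -0.64 with a median of -1.77. All 4 CpG arrays lay above all 6 untreated arrays. The log2 difference was 3.30 ± 0.29 (SE of the fit, adjusted p = 1.08e-11), 9.88-fold on a base of 2.

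For Tnf, the 3 h arrays read 3.25, 1.71, 2.67 and 3.72 against 0.43 to 0.76 (median 0.59) in untreated spleen. The groups did not overlap, although the CpG arrays spread widely, with replicate 2 the lowest and replicate 4 the highest. The log2 difference was 2.25 ± 0.22 (adjusted p = 1.69e-10, 4.76-fold).

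Il15 read 2.28, 1.72, 1.75 and 2.48 at 3 h and -0.08 to 0.24 (median 0.12) in untreated spleen, again without overlap. Its log2 difference was 1.96 ± 0.17 (adjusted p = 1.08e-11, 3.89-fold).

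Il10 read 0.44, 0.93, 0.92 and 0.72 at 3 h, and the untreated arrays ran from -1.38 to -0.01 (median -1.05). The untreated arrays spread over more than the CpG arrays, with untreated replicate 4 the highest, yet the groups did not overlap. The log2 difference was 1.64 ± 0.20 (adjusted p = 6.3e-08, 3.12-fold).

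Ifng read 2.19, 1.64, 2.07 and 1.99 at 3 h and 1.69 to 2.20 (median 1.88) in untreated spleen, so the CpG arrays lay almost wholly within the untreated range. The log2 difference was 0.05 ± 0.19 (adjusted p = 0.928), with a 95% interval from -0.34 to 0.44.

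**Figure D1:**
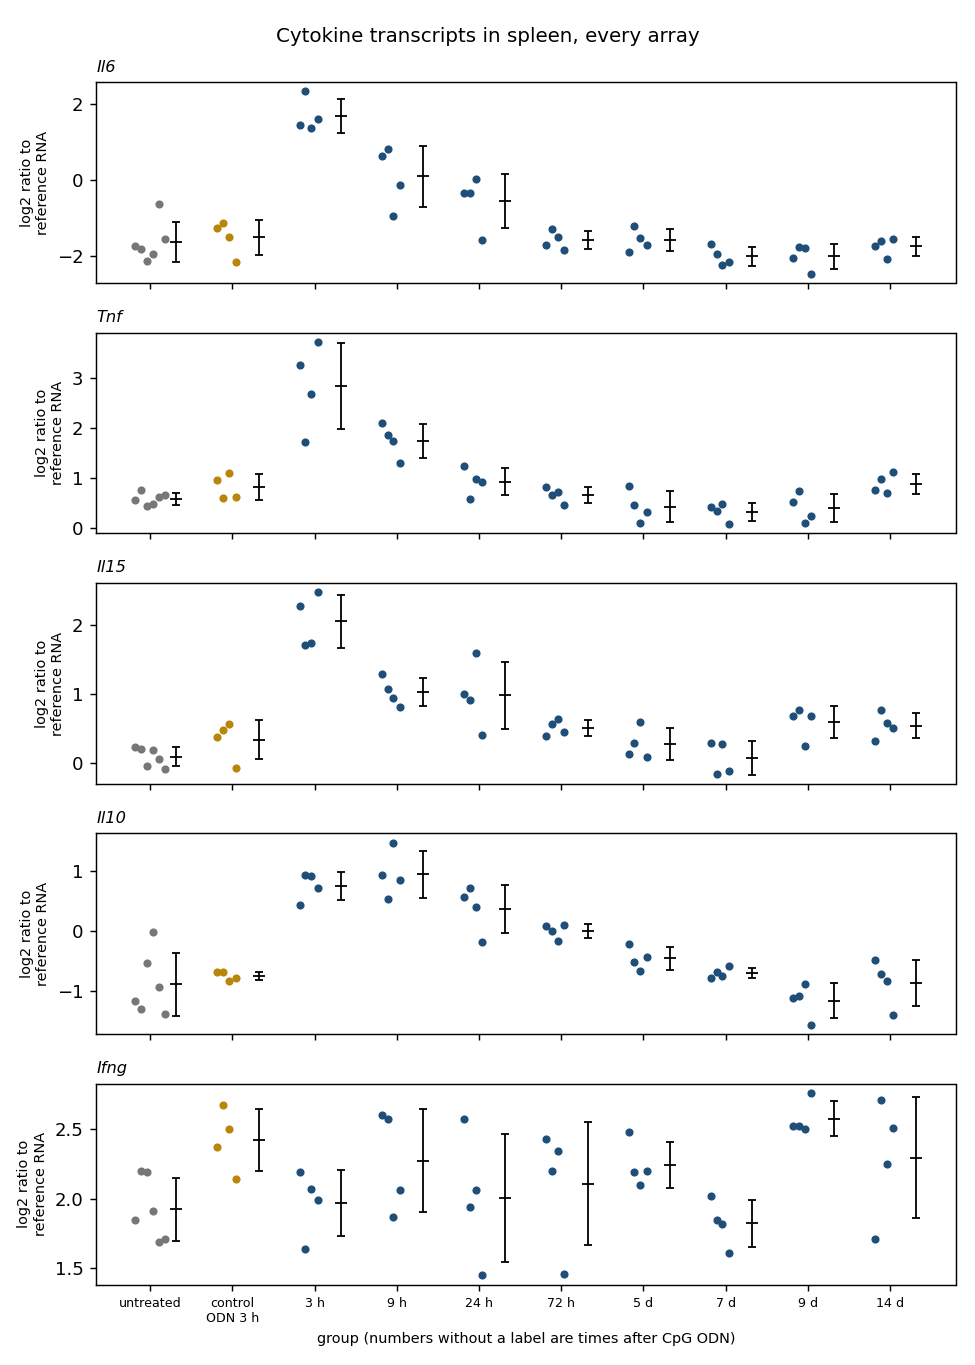
Log2 ratio to reference RNA (vertical axis, one panel per gene, each with its own scale) on every array of the 10 groups (horizontal axis); points are arrays and the bar beside them is the mean with its SD. Il6, Tnf, Il15 and Il10 at 3 h lie above all untreated arrays, and Ifng at 3 h, between 1.64 and 2.19, lies across the untreated range of 1.69 to 2.20.

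Control ODN changed none of the 5 genes detectably at 3 h, where 2.45% of all genes tested were called higher and 1.07% lower. At an unadjusted p below 0.05, 1 of the 5 genes passed, Ifng, which read 2.37, 2.67, 2.50 and 2.14 with a log2 difference of 0.49 ± 0.19 from untreated (unadjusted p = 0.0141, limma adjusted p = 0.115). The lowest of these arrays overlapped the untreated range. For the other 4 genes the differences from untreated were between 0.13 (Il6) and 0.25 (Il15).

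Set against control ODN at the same hour, the 4 genes were again higher after CpG ODN, with log2 differences of 3.18 ± 0.31 for Il6, 2.02 ± 0.24 for Tnf, 1.72 ± 0.19 for Il15 and 1.50 ± 0.22 for Il10 (limma adjusted p from 4.84e-10 to 3.3e-06, 9.23% of all genes called higher), and with runs as a random block the same count of 4 was called. For none of these 4 genes did the groups overlap. Ifng differed by -0.45 ± 0.21 (adjusted p = 0.130). CpG 3 h arrays lay in runs 2 and 3 and control ODN arrays in run 4, so in this comparison run and treatment cannot be told apart.

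The 4 genes did not all rise by the same amount at 3 h. Differences between genes within each array were compared by exact 2-sided permutation tests, adjusted over the 10 pairs. Il6 rose by 1.66 more than Il10 on the log2 scale (exact permutation p = 0.00952, adjusted p = 0.019) and by 1.34 more than Il15 (p = 0.0286, adjusted p = 0.0476). The value 0.00952 is the smallest that 4 and 6 arrays can give. Il6, Tnf, Il15 and Il10 each rose by 1.60 to 3.26 more than Ifng (adjusted p = 0.019 for each pair). For the remaining 4 pairs the difference was not detectable, including Tnf against Il10 (0.61, exact permutation p = 0.305) and Tnf against Il15 (0.29, exact permutation p = 0.238).

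Between 3 h and 9 h Il6, Tnf and Il15 fell, and for Il10, whose highest mean was at 9 h, no change was detected. The tests of the differences between genes, given below, did not pass after adjustment. In this comparison 1.15% of all genes were called lower and 0.291% higher. Together 3 of the 5 genes fell and 0 rose.

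Il6 at 9 h read 0.64, 0.80, -0.94 and -0.12. All 4 arrays lay below the 3 h arrays, and replicate 3 overlapped the untreated range. The change from 3 h was -1.58 ± 0.31 (limma adjusted p = 0.00297, or 0.0875 when the 2 groups were fitted alone), and the difference from untreated was still 1.72 ± 0.29 (adjusted p = 3.24e-05).

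Tnf at 9 h read 2.10, 1.85, 1.74 and 1.29, above every untreated array but overlapping the lowest 3 h array. The change from 3 h was -1.09 ± 0.24 (limma adjusted p = 0.00721). It rests on CpG 3 h replicate 4, without which it was -0.80 (adjusted p = 0.0832), and with the 2 groups fitted alone the adjusted p was 0.273.

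Il15 at 9 h read 1.30, 1.08, 0.95 and 0.82, below all 3 h arrays and above all untreated ones. Its change from 3 h was -1.02 ± 0.19 (limma adjusted p = 0.00105).

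Il10 at 9 h read 0.93, 0.54, 1.48 and 0.85, overlapping the 3 h arrays and lying above all untreated arrays. The change from 3 h was 0.19 ± 0.22 (limma adjusted p = 0.876, 95% interval -0.26 to 0.64), and the difference from untreated was 1.83 ± 0.20 (adjusted p = 8.24e-09).

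In all, 4 of the 5 genes were higher at 9 h than in untreated spleen, where 5.07% of all genes were called higher and 3.45% lower. Ifng read 2.60, 2.57, 1.87 and 2.06 at 9 h. Replicates 1 and 2 lay above the untreated range and replicates 3 and 4 within it, and the difference of 0.35 ± 0.19 was not called (limma adjusted p = 0.316).

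Set against each other within arrays, Il10 and Il6 moved apart between 3 h and 9 h by 1.77 on the log2 scale (exact permutation p = 0.0286, the smallest that 4 against 4 arrays can give, adjusted p = 0.0571). The same p was found for Il10 against Il15 (1.21) and for Il6, Tnf and Il15 against Ifng, so 0 of 10 pairs passed after adjustment and 5 of 10 had an unadjusted p below 0.05. Il10 minus Il6 lay between -1.39 and -0.44 at 3 h and between -0.26 and 2.42 at 9 h, without overlap. In untreated spleen it ran from -0.30 to 1.93, so the 3 h arrays lay below all the untreated ones and the 9 h arrays lay among and above them.

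**Figure D2:**
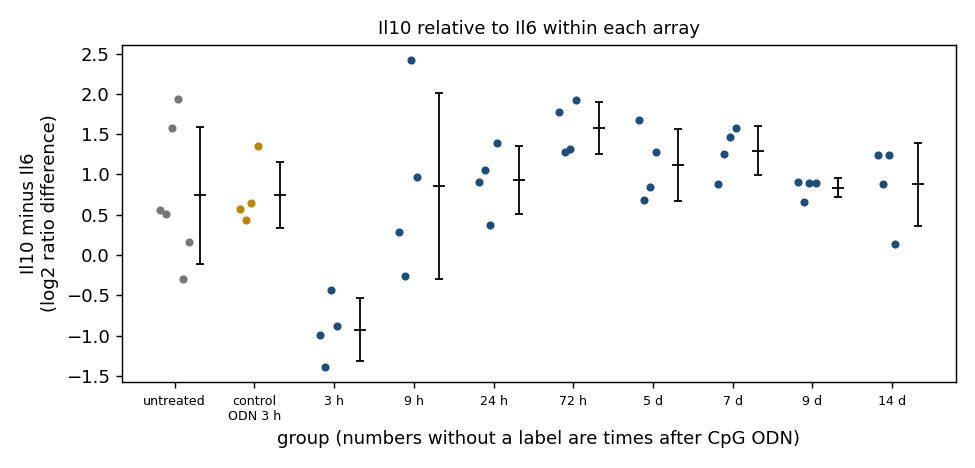
Il10 minus Il6, in log2 ratio units, within each array (vertical axis) for the 10 groups (horizontal axis); points are arrays and bars are means with SD, and only differences between groups carry meaning because the genes' own levels are not comparable. The 4 arrays at 3 h, from -1.39 to -0.44, lie below those of every other group, and the 72 h arrays lie between 1.28 and 1.92.

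Within run 3, which held 2 arrays of 3 h and all 4 of 9 h, the changes were -1.78 for Il6, -0.74 for Tnf, -0.96 for Il15, 0.26 for Il10 and 0.36 for Ifng. Within run 2, which held 2 arrays of 3 h and 1 untreated array, the 3 h differences were 3.29 for Il6, 2.43 for Tnf, 1.90 for Il15, 2.12 for Il10 and -0.17 for Ifng. The directions of the 4 rises and 3 falls were the same within these runs.

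At 24 h, 3 of the 5 genes remained higher than in untreated spleen (8.03% of all genes were called higher and 2.87% lower): Il10, Il15 and Il6. Il10 read 0.57, 0.72, 0.40 and -0.19, and all but replicate 4 lay above the untreated range. Its difference from untreated was 1.27 ± 0.20 (limma adjusted p = 2.53e-05).

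Il6 read -0.33, -0.34, 0.03 and -1.58 at 24 h. Replicate 4 lay within the untreated range and the others above it. The difference from untreated was 1.08 ± 0.29 (limma adjusted p = 0.0109), and without CpG 24 h replicate 3 it was 0.88 (adjusted p = 0.0889). With the 2 groups fitted alone the adjusted p was 0.0554.

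Il15 read 1.01, 0.92, 1.60 and 0.41 at 24 h, above all untreated arrays, with a difference of 0.88 ± 0.17 (limma adjusted p = 0.000386). Replicate 3 was measured by 1 of the 2 Il15 features there, the one that read higher. Taken alone, feature 1 gave 1.06 ± 0.17 (adjusted p = 3.56e-05) and feature 2, on 3 arrays, 0.41 ± 0.21 (adjusted p = 0.235), so the Il15 call at 24 h rests on feature 1.

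Tnf at 24 h read 1.24, 0.58, 0.97 and 0.91, all below the 9 h arrays and partly within the untreated range. It had fallen by 0.82 from 9 h (SE 0.24, limma adjusted p = 0.0235), 1 of the 5 genes that did so (3.31% of all genes were called lower). Leaving out either of 2 arrays at 9 h or either of 2 at 24 h took this fall past the threshold, with an adjusted p of up to 0.0898 without CpG 24 h replicate 2. Its difference from untreated was 0.34 ± 0.22 (adjusted p = 0.339). Within run 3, with 3 arrays of 24 h and 4 of 9 h, the change of Tnf was -0.93.

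At 72 h, Il10 alone of the 5 genes was called higher than in untreated spleen, in a comparison with 8.94% of all genes called higher and 6.01% lower. Its 4 arrays read 0.08, 0.00, -0.16 and 0.10. Of the untreated arrays, replicate 4 at -0.01 lay among them and the other 5 lay below. The difference was 0.89 ± 0.20 (limma adjusted p = 0.00291), and it stayed between 0.79 and 1.07 when any single array was left out. Within run 4, Il10 at 72 h was 0.75 above control ODN 3 h and 0.86 above CpG 14 days, both on 4 against 4 arrays.

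Il6 at 72 h read -1.70, -1.28, -1.48 and -1.82, within the untreated range. It had fallen by 1.02 from 24 h (SE 0.31, limma adjusted p = 0.0466, 1.90% of all genes called lower). That call held without CpG 24 h replicate 4 and was lost without any one of the other 7 arrays of these times, with an adjusted p of up to 0.204 without CpG 24 h replicate 3.

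Il15 at 72 h read 0.39, 0.57, 0.65 and 0.46, all above the untreated arrays, but its difference of 0.42 ± 0.17 was not called (limma adjusted p = 0.0887). Feature 1 alone gave 0.60 ± 0.17 (adjusted p = 0.0174) and feature 2 gave 0.24 ± 0.20 (adjusted p = 0.44). Tnf, between 0.45 and 0.82, and Ifng, between 1.46 and 2.43, overlapped the untreated arrays.

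Expressed as a share of the log2 difference at 3 h, Il6 kept 52.2% at 9 h, 32.5% at 24 h and 1.7% at 72 h, and Tnf kept 51.5%, 15% and 3.35%. Il15 kept 48%, 45.1% and 21.5%, and its features taken alone parted at 24 h, where feature 1 kept 52.1% and feature 2 kept 21.7%. Il10 stood at 112% at 9 h and kept 77% at 24 h, 54.3% at 72 h and 26.4% at 5 days. These shares do not show a slower fall of Il10 between 9 h and 24 h. Over that step Il6 against Il10 changed by -0.08 within arrays (exact permutation p = 0.886), and 0 of 10 pairs passed after adjustment. Il6, Tnf and Il15 thus had their highest mean at 3 h and Il10 at 9 h, while the Il10 means at 3 h and 9 h did not differ beyond their spread. Times before 3 h were not analysed here.

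**Figure D3:**
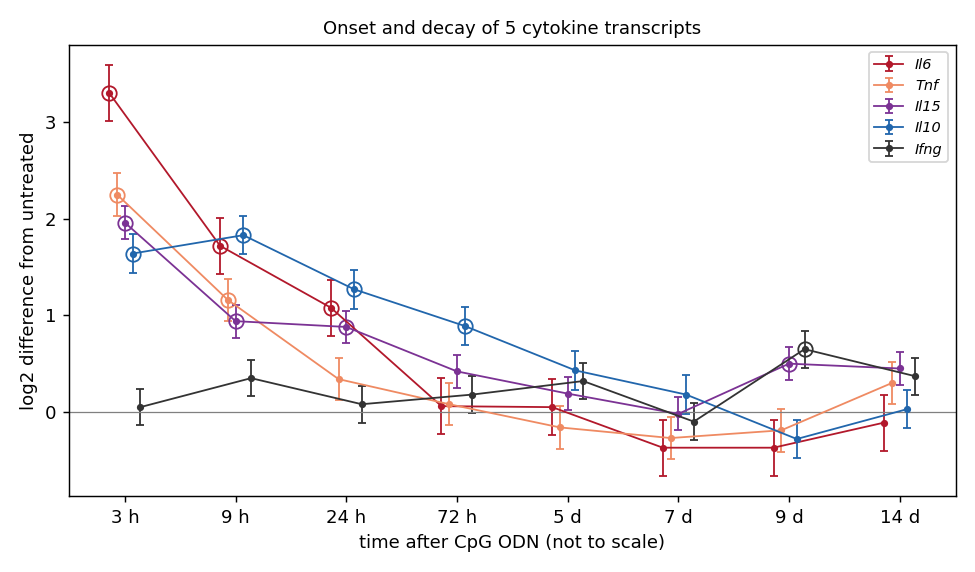
Log2 difference from untreated spleen (vertical axis) at the 8 times after CpG ODN (horizontal axis, not to scale); points are fitted differences, bars their SE, and ringed points were called at an adjusted p below 0.05. Il6 starts highest at 3.30 and is at 0.06 by 72 h, while Il10 stays ringed through 72 h and Ifng is ringed at 9 days alone.

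At 5, 7 and 14 days none of the 5 genes was called against untreated spleen by limma, in comparisons where 17.5%, 8.68% and 2.77% of all genes were called higher and 13.4%, 6.89% and 1.77% lower. At an unadjusted p below 0.05, Il10 passed at 5 days (0.43 ± 0.20, adjusted p = 0.0996) and Il15 at 14 days (0.45 ± 0.17, adjusted p = 0.113), and at 7 days none did. Il10 at 5 days read -0.21, -0.52, -0.66 and -0.43, all within the wide untreated range. With single arrays left out, the 5 day difference ran from 0.34 to 0.61. The limma adjusted p was lowest without untreated replicate 4, the highest Il10 array of that group (0.0124). It was highest without CpG 5 days replicate 1 (0.243).

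Il6 and Tnf read lowest at 7 and 9 days. Il6 ran from -2.22 to -1.67 at 7 days and from -2.46 to -1.75 at 9 days, overlapping the untreated arrays, with a difference of -0.37 ± 0.29 at each time. Tnf ran from 0.07 to 0.47 at 7 days and from 0.09 to 0.73 at 9 days, with differences of -0.27 ± 0.22 and -0.19 ± 0.22. None of these 4 differences was called.

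At 9 days a different pair of genes was called higher than in untreated spleen, Ifng and Il15 (8.40% of all genes were called higher and 5.12% lower). Ifng read 2.52, 2.52, 2.50 and 2.76, above every untreated array, with a log2 difference of 0.65 ± 0.19 (limma adjusted p = 0.0201). Il15 read 0.68, 0.77, 0.25 and 0.68, above every untreated array by as little as 0.25 against 0.24, with a difference of 0.50 ± 0.17 (adjusted p = 0.0443).

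Compared with 7 days, Ifng was 0.75 ± 0.21 higher at 9 days (limma adjusted p = 0.0322), with all 4 arrays above the 7 day arrays of 2.02, 1.85, 1.82 and 1.61. Among all genes 3.03% were called higher in that comparison, and Ifng was the 1 member that was. The Ifng call was lost without any one of 6 of these 8 arrays (limma adjusted p 0.0626 to 0.103), with quantile normalization (adjusted p = 0.079) and with equal scale between arrays (adjusted p = 0.0878). For Il15 the difference from 7 days was 0.52 ± 0.19 (adjusted p = 0.0904). The 7 day arrays lay in run 4 and the 9 day arrays in runs 7, 9 and 10. In this comparison, too, run and time cannot be told apart. Within run 9, 2 arrays of 9 days differed from 1 array of 5 days by 0.04 for Ifng and 0.6 for Il15. By 14 days Ifng read 1.71, 2.71, 2.25 and 2.51 and overlapped the untreated arrays again.

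The calls at 9 days were lost under several settings. Without CpG 9 days replicate 4 the Ifng difference was 0.58 (limma adjusted p = 0.083), and without replicate 2 of that group the Il15 difference was 0.44 (adjusted p = 0.131). With quantile normalization between arrays the Ifng difference was 0.33 (adjusted p = 0.205) and the Il15 difference 0.46 (adjusted p = 0.0519). Arrays of 9 days lay in runs 7, 9 and 10 and untreated arrays in runs 1 and 2, so run and time cannot be told apart. With runs as a random block the Ifng call held and the Il15 difference was 0.50 (adjusted p = 0.056).

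No marker of NK, cytotoxic or T cells was called higher beside Ifng at 9 days. Of 8 NK and cytotoxic cell markers 4 were lower and 0 higher, with a median difference of -0.68 against 0.004 over all genes, and Gzma (-1.77), Ncr1 (-1.05) and Gzmb (-1.02) were among the 4. Their mean log2 ratio lay between 2.22 and 2.67 on the 4 arrays at 9 days and between 2.43 and 3.41 on the untreated arrays. Of 8 T cell markers 3 were lower and 0 higher. Among all genes 8.40% were called higher and 5.12% lower at 9 days. All 7 neutrophil markers tested were higher (median 2.83), with a mean of 4.08 to 4.70 at 9 days against 1.08 to 1.82 in untreated spleen, and the part of this change in the Ifng and Il15 results was not tested.

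Over the 8 CpG times together, limma's F test called all 5 genes, as it did 63.5% of all genes. The adjusted p was 2.56e-12 for Il6, 5.36e-11 for Il10, 8.61e-11 for Tnf, 1.77e-10 for Il15 and 0.0404 for Ifng. The Ifng call was lost without any one of several arrays, with an adjusted p of 0.103 without CpG 9 days replicate 4. It was also lost in this F test with quantile normalization (adjusted p = 0.0761) and with equal scale between arrays (adjusted p = 0.193).

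In the order of group means, Il6 at 3 h stood above every other group without overlapping the next, 9 h. The 9 h and 24 h groups overlapped, and the 7 groups below them overlapped each in turn. Tnf at 3 h and 9 h overlapped, and a gap without overlap followed before 24 h. Il10 had its gap lower down, between 72 h (0.00 ± 0.12) and 5 days (-0.45 ± 0.19). For Il15 the gap lay between 3 h (2.06 ± 0.38) and 9 h (1.04 ± 0.21), and for Ifng all neighbouring groups overlapped.

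The 2 Il15 features were also read apart. At 3 h feature 1 read 2.25 ± 0.35 (SD, n = 4) and feature 2 read 1.87 ± 0.45, and their differences from untreated were 2.03 ± 0.17 and 1.89 ± 0.20. At 9 h the differences from untreated were 0.96 ± 0.17 and 0.92 ± 0.20. After control ODN the differences were 0.48 ± 0.17 and 0.01 ± 0.20. At 24 h and 72 h they parted, as given above, and at 9 days feature 1 was called (0.56 ± 0.17, limma adjusted p = 0.0275) and feature 2 was not (0.44 ± 0.20, adjusted p = 0.142). Feature 2 had no value on 1 array each at 24 h, 5 days and 14 days, where the gene value is that of feature 1.

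**Figure D4:**
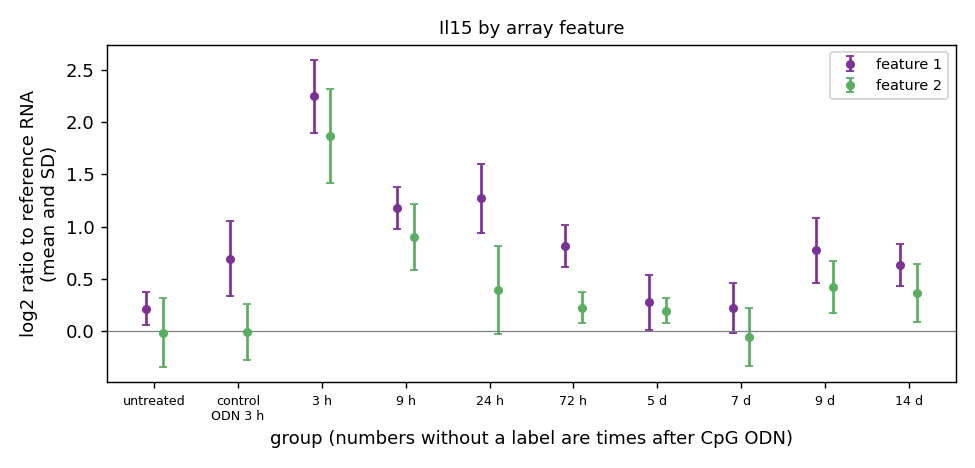
Log2 ratio to reference RNA (vertical axis) of the 2 Il15 features in the 10 groups (horizontal axis), as mean and SD over the arrays that have a value. The features read 2.25 and 1.87 at 3 h, 0.69 and -0.01 after control ODN, 1.27 and 0.39 at 24 h, and 0.81 and 0.22 at 72 h.

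Of 8 genes for IL-6 and IL-10 receptors and signalling, 5 rose and 0 fell at 3 h (median 0.44, against -0.023 over all genes). Here and in the lists below, counts at 3 h are set against the 7.70% of all genes called higher and 3.93% lower. They included Stat3 (1.06 ± 0.27), the transcription factor both cytokines use, and the kinases Jak2 (0.80) and Tyk2 (0.62). Il6st (0.45 ± 0.13), which encodes gp130, the signalling chain of the IL-6 receptor, was among them too. Against control ODN at the same hour Stat3 (1.83), Jak2 (1.02) and Tyk2 (0.77) were called higher, and Il6st (0.29) and Jak1 (0.18) were not called. Il10rb, a chain of the IL-10 receptor, was called lower in that comparison (-0.95, limma adjusted p = 0.00128). Against control ODN 9.23% of all genes were called higher, and the share called lower is not given here. Lower calls against control ODN, here and in the lists below, thus have no background share beside them. The ligand-binding chains were not called at 3 h, with Il6ra at -0.28 and Il10ra at 0.28. From 9 h to 72 h the median of the 8 lay between -0.18 and 0.02 without a call, and at 5 and 7 days Il6st was lower (-0.62 and -0.53). Jak1 was lower at 5 days (-0.66) and 9 days (-0.51) and Il10ra at 7 days (-0.87). At 9 days Il6ra (0.66) and Jak2 (0.62) were higher.

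For TNF receptors, release and signalling, 3 of 7 genes rose at 3 h: the ubiquitin ligases Birc3 (1.57 ± 0.18) and Birc2 (0.94) and the receptor gene Tnfrsf1a (0.69 ± 0.20). Against control ODN at 3 h, Birc3 (1.29) and Birc2 (1.21) were called and Tnfrsf1a (0.17 ± 0.22) was not. Tnfrsf1a was also higher than in untreated spleen at 24 h (0.83) and 14 days (0.79). Birc3 was lower than in untreated spleen at 5 days (-0.83), 7 days (-0.83) and 9 days (-0.63). The sheddase Adam17 (0.36) and the second receptor Tnfrsf1b (0.34) were not called at 3 h against untreated spleen. Against control ODN Tnfrsf1b was called higher (0.40, limma adjusted p = 0.0412) and Adam17 (0.15) was not called.

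Of 5 genes for IL-15 receptors and signalling, 2 rose at 3 h: Il15ra (1.01 ± 0.10, limma adjusted p = 8.72e-10), whose product presents IL-15, and the kinase gene Jak3 (1.04 ± 0.22). Against control ODN Il15ra was called higher (0.85), Stat5b was called lower (-0.64, limma adjusted p = 0.0412) and Jak3 was not called (0.65, limma adjusted p = 0.0545). Il15ra was called higher at 9 h (0.79), 24 h (0.54), 72 h (0.64), 5 days (0.45) and 9 days (0.46), that is at each time when Il15 was called and at 72 h and 5 days as well. Il2rb, the receptor chain on responding lymphocytes, read between -0.03 and 0.52 up to 5 days without a call and was lower at 7 days (-0.74).

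Of 5 genes for interferon-gamma receptors and signalling, 3 rose at 3 h: the transcription factor Irf1 (1.22 ± 0.29), Jak2 (0.80) and Jak1 (0.43). Against control ODN Irf1 (1.83) and Jak2 were called and Jak1 was not. Irf1 was called at 9 h too (1.22). The receptor chain Ifngr2 was lower at 5 days (-0.47) and 7 days (-0.56), Jak1 was lower at 5 and 9 days, and Jak2 was higher at 9 days, with the values given above.

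Of 10 STAT3 target genes 4 rose at 3 h and 0 fell (median 0.59): Socs3 (3.32 ± 0.27), the feedback inhibitor of IL-6 signalling, Cebpd (1.39), Pim1 (1.14) and Junb (0.93). Socs3 stayed higher at 9 h (2.14) and 24 h (1.17), and it was also higher 3 h after control ODN (0.92). Of 9 TNF and NF-kB target genes 8 rose at 3 h (median 1.73), led by the neutrophil chemokine Cxcl1 (2.60 ± 0.26), the NF-kB inhibitor Tnfaip3 (2.42 ± 0.19), Sod2 (1.90) and Traf1 (1.83). Traf1 was also higher after control ODN (0.96). At 9 h 5 of the 9 were higher and 1, Vcam1 (-0.97), was lower (5.07% and 3.45% of all genes). At 24 h and 72 h Nfkbia was lower (-0.65 and -0.93) while Sod2 was higher at both times (0.51 and 0.53).

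Of 12 interferon-gamma target genes, 8 were higher at 3 h with 0 lower (median 2.03), at the time when no difference in Ifng was detected. Membership of this list does not show which signal raised a gene, and that was not tested. The guanylate-binding protein gene Gbp2 was 3.44 ± 0.26 higher, the chemokine gene Cxcl9 3.14 ± 0.36, and the GTPase genes Iigp1 and Igtp 2.93 ± 0.25 and 2.35 ± 0.20. The number higher was 8 at 9 h, 7 at 24 h, 7 at 72 h and 7 at 5 days, then 2 at 7 days, 1 at 9 days and 0 at 14 days. Among all genes the share called higher was 5.07% at 9 h, 8.03% at 24 h, 8.94% at 72 h and 17.5% at 5 days. It was 8.68% at 7 days, 8.40% at 9 days and 2.77% at 14 days. Nos2 was lower at 5 days (-0.70) and 14 days (-0.88). At 9 days, when Ifng was called higher, Igtp (1.16) was the 1 target called and the median of the 12 was 0.05. That count was near the share over all genes.

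**Figure D5:**
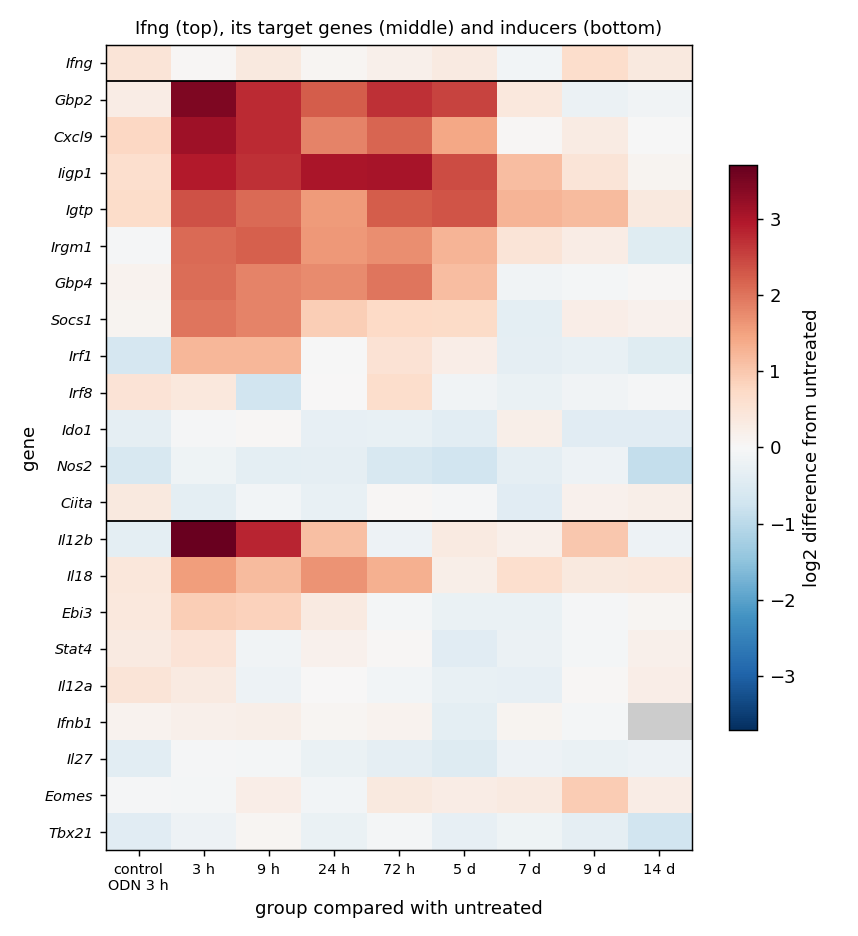
Log2 difference from untreated spleen (colour scale) for Ifng (top row), 12 interferon-gamma target genes (middle) and 9 inducers of interferon-gamma (bottom) in the 9 other groups (columns); grey marks a comparison with too few values. The 8 targets called at 3 h are red at 3 h and 9 h, and 7 of them to 5 days, while Ifng stays between -0.10 and 0.65.

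Of 9 inducers of interferon-gamma 4 rose at 3 h (median 0.33): the interleukin-12 subunit gene Il12b (3.67 ± 0.18), Il18 (1.54 ± 0.21), Ebi3 (0.90) and Stat4 (0.50). Against control ODN at 3 h Il18 was called (1.12), Ebi3 (0.50) and Stat4 (0.16) were not, and Il12b had too few values to be tested. Il12a, the other subunit gene of interleukin-12, was not called (0.33). Il12b was higher at 9 h (2.82) and 24 h (1.11) and again at 9 days (0.99). Il18 stayed higher to 72 h (1.31), was not called at 5 days (0.22) and was called higher again at 7 days. At 9 days the transcription factor gene Eomes was higher beside Il12b (0.93 for Eomes). Lower than in untreated spleen were Il27 (-0.47) and Stat4 (-0.43) at 5 days and Tbx21 (-0.70) at 14 days.

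Genes acting on cytokine mRNA were examined because Il6 and Tnf mRNAs are known to be unstable. Of 12 such genes 3 rose at 3 h and 0 fell (median 0.11): the phosphatase gene Dusp1 (2.07 ± 0.30), Arid5a (1.12 ± 0.14), whose product stabilises Il6 mRNA, and Zc3h12a (0.91 ± 0.22), which encodes the ribonuclease Regnase-1 that degrades it. Set beside control ODN at 3 h, Dusp1 (1.83), Arid5a (1.38), Zc3h12a (0.85), Zfp36l1 (0.89) and Rc3h2 (0.42) were called higher and Khsrp (-1.28) lower. Control ODN itself differed from untreated spleen in Khsrp (1.25), Zfp36l1 (-1.0) and Rc3h2 (-0.52). Compared with untreated spleen, Arid5a remained higher at 9 h (0.68) and 24 h (0.50), and Zc3h12a was not called at 9 h (0.61). Zfp36, encoding tristetraprolin, was not called at 3 h (0.45) and was lower at 5 days (-0.90) and 7 days (-0.64). Zfp36l1 was lower at 72 h, at 5 days (-1.19) and at 7 days.

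Of 11 genes for TLR9 signalling, 4 rose at 3 h: the adaptor Myd88 (1.42 ± 0.19), the NF-kB subunit Rel (0.97), Irf7 (0.79) and Tlr9 itself (0.77 ± 0.20). Against control ODN at the same hour Rel was called higher (1.20), while Myd88 (0.41), Irf7 (0.49) and Tlr9 (0.25) were not called. Irak1 was called lower in that comparison (-0.37, limma adjusted p = 0.028). Myd88 was also higher after control ODN than in untreated spleen (1.01). Myd88 and Irf7 stayed higher to 72 h (0.57 and 0.67), and Tlr9 was higher at 9 h (0.68), 5 days (0.50) and 9 days (0.70).

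Markers of cell types at 3 h are set against the 7.70% of all genes called higher and 3.93% lower. Of these markers 1 of 7 for B cells and 1 of 8 for T cells were lower, 1 of 7 for monocytes and macrophages (Msr1, 1.26) was higher, and 2 of 8 for NK and cytotoxic cells, Gzmb (2.84) and Klrk1 (0.75), were higher. Among dendritic cell markers 2 of 8 were higher and 2 lower, and 1 of 7 neutrophil markers, Mmp8 (2.94), was higher. After control ODN Mmp8 (1.56) and Msr1 (0.64) were higher than in untreated spleen as well. At 24 h, when Il6, Il10 and Il15 were still higher, 4 of 7 monocyte and macrophage markers were higher (median 0.83). Among all genes 8.03% were called higher at that time. The 5 pancreas acinar markers tested had median differences from untreated between -2.93 and 0.37 across the groups, without a call. Their mean varied widely between arrays, from 0.6 to 5.36 in untreated spleen and from 0.29 to 5.71 at CpG 3 h. The lack of a call therefore does not show similar levels. The part of these shifts in the cytokine results was not tested.

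Genes whose log2 ratios most resembled each cytokine's were named by Pearson's correlation over the 42 arrays, as a description. They were sought among 12320 other genes with a value on every array, passing over symbols of clones and predicted genes. Il6 was closest to Daxx (0.913), Casp4 (0.905), the NF-kB cofactor gene Nfkbiz (0.896), the activation marker gene Cd69 (0.893) and the collagenase gene Mmp13 (0.889). Tnf was closest to Gadd45b (0.9), then the chemokine gene Ccl4, Nfkbiz, Tor1aip1 and the interleukin-1 receptor antagonist gene Il1rn. Il15 was closest to Casp4 (0.883), Cd69, Gadd45b, Tnf (0.86) and Ifi205.

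Il10 was closest to Phf11d (0.898), Saa3, Rita1, Bst2 and Oas2. The nearest genes of Ifng were Anks4b (0.778), Dnajb13, Dsp, Kcnk6 and Tmem51. Their correlations were lower than those of the other cytokines' neighbours.

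Among the cytokines, Il6, Tnf and Il15 correlated with each other at 0.833 to 0.86 over the 42 arrays, and Il10 with Il6 at 0.73. Correlations of Ifng with the other 4 lay between -0.17 and 0.119. These points share the arrays, the reference RNA and the groups. By Spearman's rho instead of Pearson's r, 4 of the 5 nearest genes of Ifng and 2 of those of Il10 were the same, and 0 of those of Il6, Tnf and Il15.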

How the data were processed

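Spleen cDNA (Cy5) and universal mouse reference cDNA (Cy3) were hybridised to 2-colour arrays, per the labels' protocols. The deposited values are log2 ratios made by the authors. Base and direction were inferred from the range (-6.859 to 9.784) and from spleen genes, while the labels name neither the normalization nor the spot filter. Array medians lay between -0.014 and 0.019, and 173 to 1740 features per array had no value. The number of arrays limits the precision.

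Features were named from the platform's annotation, updated by gene ID, and averaged per symbol (23485 features, 15277 genes). Groups were compared in 1 limma fit of all 42 arrays (limma 3.58.1, R 4.3.3), with Benjamini-Hochberg adjustment over all genes with at least 3 arrays in both groups, and the method was tested on simulated data. Pairs of members used exact permutation tests. Alternatives changed scaling, features, spread, array weights, thresholds, the arrays fitted and blocks (replicate number, run). Runs are arrays whose database numbers lie within 12 of the next. The members, gene lists and tests were chosen with earlier results of these data known. From each list, up to 4 called genes of largest difference at 3 h and 2 in each other comparison were eligible for naming, and the others named were chosen after their values were seen. Replicate numbers were not taken to pair the arrays. Same-numbered arrays of other groups had a mean correlation of deviations of 0.041, over 0.1 in 63 of 180 pairs. For other-numbered arrays of other groups the mean was -0.012, over 0.1 in 167 of 612 pairs.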

Additional observations from a re-analysis of the deposited data

Results flagged for a closer look

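Of 50 groups of arrays tested, 10 for each of the 5 genes, 1 held an array far from the others by Dixon's ratio at its 95% critical value. The untreated groups have 6 arrays and the others 4. Ifng on CpG 9 days replicate 4 read a log2 ratio of 2.76, and the other 3 arrays of that group lay between 2.50 and 2.52, a ratio of gap to range of 0.917. Chance marks about 1 in 20 groups. Ifng at 9 days was not called without this array, as given above.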

How the results depend on the processing

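No called difference of the 5 genes changed sign under the alternatives run. The 4 genes called at 3 h against untreated spleen and against control ODN, and the 4 called at 9 h against untreated, stayed at 4 with every single array left out. With the run as a fixed term, a fit of genes without missing values in which 1 untreated array carries the contrast, 4 genes stayed called at 3 h, 1 at 9 h (Il10, 2.37, while Il6 was 1.51, Tnf 1.70 and Il15 0.93) and 0 at 24 h, where Il10 was 1.74, Il15 0.87 and Il6 0.79. Tnf at 9 h against 3 h was -0.74 there (limma adjusted p = 0.341). At 72 h against untreated 2 genes were called with quantile normalization, equal scale between arrays, array weights or the 2 groups alone. At 9 days against untreated 0 were called with quantile normalization, equal scale or an adjusted p below 0.01, and 1 with runs as a random block or single features. Il6 at 24 h was lost with the 2 groups alone and at 0.01. For 9 h against 3 h the 2 groups alone gave 1, Il15. For 24 h against 9 h the 2 groups alone and the threshold of 0.01 gave 0. For 72 h against 24 h quantile normalization, the 2 groups alone, runs as a random block, single features and the threshold of 0.01 gave 0, and array weights gave 2. For 9 days against 7 days quantile normalization, equal scale and the threshold of 0.01 gave 0, and array weights gave 2. The cause was not tested.

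Leaving out single arrays moved the number of genes called from 0 to 2 at 9 days against untreated, 24 h against 9 h, 72 h against 24 h and 9 days against 7 days, from 0 to 1 at 5 days, and from 2 to 3 at 24 h and for 9 h against 3 h. With the replicate number as a block, though numbers were not taken to pair the arrays, 0 genes were called at 9 days against untreated. Ifng was 0.53 (limma adjusted p = 0.092) and Il15 0.45 (adjusted p = 0.134) in that fit. Ifng also missed the F test (adjusted p = 0.0604), and no other call was lost. The fixed run block could be fitted for 5 comparisons alone. Signal over background was not used here, and 4 arrays a group limit what small changes can be seen.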
